A study of Mus musculus with 12 samples.

Results

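Oocytes that had lost mitofusin 1 alone were set against WT oocytes across all 11385 measured genes. The comparison takes 6 of the 12 sequenced samples, 3 pools labelled Mfn1-/- and 3 pools labelled WT. It was repeated without WT replicate 3, a pool in which transcripts of granulosa cells stood high. Every pool held 50 germinal-vesicle oocytes, stripped of their cumulus cells, from mice aged 21 to 23 days that had received no hormone priming and are labelled C57BL/6J. The other 6 samples, 3 Mfn1&2-/- and 3 Mfn2-/- pools of the same age, strain and stage, serve here as a second look at loss of Mfn1, in oocytes that also lack Mfn2. The labels name no Cre driver or targeted exon and leave unsaid whether the alleles are whole-body or oocyte-specific. Nothing in them ties pools to separate animals. The p-values therefore measured only pool-to-pool spread, which may be technical.

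Mitochondria fuse in steps, and the mitofusins, GTPases anchored in the outer membrane, carry out the first by drawing the outer membranes of neighbouring organelles together. Mitofusin 1 is known mainly for this docking and fusion, whereas mitofusin 2 is also known for contacts between mitochondria and the ER. A germinal-vesicle oocyte is arrested in meiotic prophase, stores messenger RNA for later use, and is coupled to its granulosa cells through gap junctions across the zona pellucida.

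Library totals ran from 11830185 to 16024893 counts in the 6 pools. Levels are given in CPM, counts scaled to library size and TMM factors. CPM is not corrected for transcript length, so it was compared only within a gene. Over the 12 libraries 3 counts, the floor used here, corresponded to 0.188 to 0.253 CPM. Values after ± are the SD over n = 3 pools for CPM and the standard error for a log2 fold change. On the first principal component of the 6 libraries (37.4% of the variance) WT replicate 3 stood at -54.9, the other WT pools at -3.0 and -8.9, and the Mfn1-/- pools at 8.5 to 35.8. WT replicate 3 had 1094 genes more than 2-fold away from the mean of the other pools of its group, against 631 to 683 in the Mfn1-/- pools and 673 to 812 in the other WT pools.

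Mfn1 itself checked the labels. It was at 17.8, 18.9 and 17.7 CPM in Mfn1-/- oocytes, against 264.1, 278.2 and 296.8 CPM in WT oocytes. The knockout level was 6.48% of the WT level (log2 fold change -3.94 ± 0.16; adjusted p = 7.83e-10 by edgeR's quasi-likelihood test). Mfn1 lies on chromosome 3 at 32529465 to 32579239 on the plus strand (GRCm38, GENCODE vM21, the source of all gene spans given here). The exons behind the remaining reads were not analysed here. Mfn2, the other mitofusin, was at 70.8, 64.5 and 64.3 CPM in Mfn1-/- and 87.2, 73.4 and 68.4 CPM in WT oocytes. These groups overlapped and Mfn2 was not called (log2 fold change -0.20 ± 0.16, edgeR adjusted p = 0.643).

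Few genes were called by edgeR in Mfn1-/- against WT oocytes, although 12.8% of all genes had an unadjusted p below 0.05. At an adjusted p below 0.05 by edgeR's quasi-likelihood test, 26 of 11385 genes were called (0.228%). Of these, 8 were higher (0.0703% of genes) and 18 lower (0.158%) in Mfn1-/- than in WT oocytes. By size, 24 of the 26 moved more than 1.5-fold, 16 more than 2-fold and 4 more than 4-fold. In all 26 the Mfn1-/- and WT pools did not overlap, as was so for 18.1% of all genes. The DESeq2 Wald test called 224 of 11376 genes (1.97%), 93 higher (0.818%) and 131 lower (1.15%), the 26 among them.

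**Figure D1:**
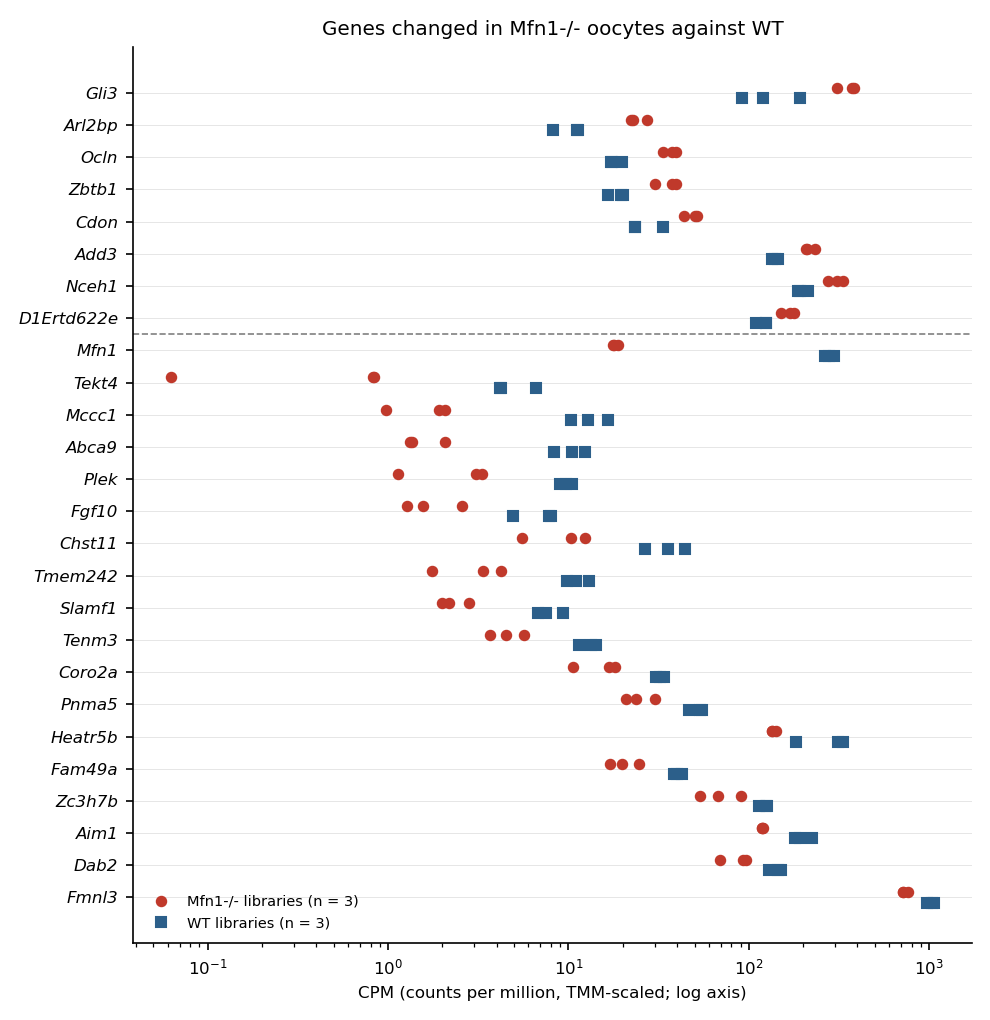
CPM (log axis) of the 26 genes called in Mfn1-/- against WT oocytes, with 1 red circle per Mfn1-/- pool and 1 blue square per WT pool, above the dashed line the 8 higher and below it the 18 lower genes. No gene's red and blue points overlap, and the widest gap is that of Mfn1, at 17.7 to 18.9 CPM in Mfn1-/- and 264.1 to 296.8 CPM in WT pools.

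Among the genes that rose, 2 act in Hedgehog signalling, a pathway in which a ligand relieves the inhibition of the membrane protein Smo and thereby sets the balance between activating and repressing Gli transcription factors. Gli3, the family member best known as a repressor, was at 370.6, 306.9 and 385.0 CPM in Mfn1-/- oocytes, against 192.9, 92.0 and 119.2 CPM in WT oocytes. Each Mfn1-/- pool lay above each WT pool (log2 fold change 1.39 ± 0.22, 2.63-fold, edgeR adjusted p = 0.0159; chromosome 13, 15463235 to 15730026). Cdon, a cell-surface coreceptor for Hedgehog ligands, was at 50.3, 51.9 and 43.8 CPM in Mfn1-/- and 33.3, 23.5 and 23.4 CPM in WT oocytes (0.86 ± 0.16, edgeR adjusted p = 0.0392; chromosome 9, 35421128 to 35507652).

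The remaining 6 higher genes have varied roles. Ocln, a tight-junction membrane protein, was at 39.3, 37.6 and 33.3 CPM in Mfn1-/- and 19.7, 17.5 and 17.2 CPM in WT oocytes (log2 fold change 1.02 ± 0.17). Add3, an adducin that caps actin filaments and ties them to spectrin, was at 232.8, 211.3 and 208.0 CPM in Mfn1-/- and 144.3, 140.2 and 134.0 CPM in WT oocytes (0.64 ± 0.11). Both are genes of the cell cortex and of cell contacts. Nceh1, which hydrolyses cholesterol esters, was at 334.0, 307.8 and 275.3 CPM in Mfn1-/- and 192.9, 187.6 and 213.7 CPM in WT oocytes (0.63 ± 0.11). Arl2bp, a binding partner of the small GTPase Arl2, was at 22.1, 22.9 and 27.1 CPM in Mfn1-/- and 11.3, 11.1 and 8.18 CPM in WT oocytes (1.23 ± 0.23). Zbtb1, a zinc-finger transcriptional regulator, rose by 0.93 ± 0.17 and D1Ertd622e, named here without a role, by 0.48 ± 0.09 on the log2 scale. The edgeR adjusted p of these 6 ran from 0.0181 (Add3) to 0.0490 (D1Ertd622e).

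Among the genes that fell besides Mfn1, Mccc1 and Tmem242 have products in mitochondria. Mccc1, a subunit of the carboxylase that acts in leucine breakdown, was at 0.978, 2.07 and 1.92 CPM in Mfn1-/- oocytes, against 16.5, 10.3 and 12.9 CPM in WT oocytes (log2 fold change -2.99 ± 0.48, edgeR adjusted p = 0.0168). It fell to 12.5% of the WT level. Tmem242, known from human cells as an assembly factor of the mitochondrial ATP synthase, was at 3.38, 1.76 and 4.25 CPM in Mfn1-/- and 13.0, 9.87 and 11 CPM in WT oocytes (-1.86 ± 0.29, edgeR adjusted p = 0.0159; chromosome 17, 5410870 to 5440259).

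Chst11, Tenm3 and Fgf10, grouped here by role after their values were seen, were also lower. Chst11, a sulfotransferase of chondroitin sulfate chains, was at 5.56, 10.3 and 12.3 CPM in Mfn1-/- and 26.6, 35.5 and 44.4 CPM in WT oocytes (log2 fold change -1.92 ± 0.25, edgeR adjusted p = 0.00582; chromosome 10, 82985498 to 83195900). Apart from Mfn1 it had the smallest p of all genes. Tenm3, a teneurin that binds partners on neighbouring cells, was at 3.68, 5.64 and 4.5 CPM in Mfn1-/- and 11.5, 13.4 and 14.2 CPM in WT oocytes (-1.49 ± 0.22). Fgf10, a secreted fibroblast growth factor, was at 1.28, 1.57 and 2.58 CPM in Mfn1-/- and 4.95, 8.01 and 7.85 CPM in WT oocytes (-1.94 ± 0.36). The edgeR adjusted p was 0.0159 for Tenm3 and 0.0351 for Fgf10.

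Of 5 further lower genes, described together for ease of reading and not as a tested group, Fmnl3 and Coro2a act on actin, as does Add3, which was called higher. Fmnl3, a formin that builds actin filaments, was at 718.6, 716.6 and 765.7 CPM in Mfn1-/- and 1029.3, 1060.2 and 966.1 CPM in WT oocytes (log2 fold change -0.47 ± 0.07). Coro2a, a coronin, was at 10.6, 16.8 and 18.0 CPM in Mfn1-/- and 30.4, 33.9 and 32.3 CPM in WT oocytes (-1.09 ± 0.18). The edgeR adjusted p was 0.0159 for Fmnl3 and 0.0196 for Coro2a. Heatr5b, a HEAT-repeat protein of endosomal traffic, was at 141.9, 133.8 and 133.6 CPM in Mfn1-/- and 333.6, 183.5 and 311.8 CPM in WT oocytes (-1.02 ± 0.16). Dab2, an endocytic adaptor, was at 69.0, 93.2 and 96.1 CPM in Mfn1-/- and 145.9, 129.9 and 150.8 CPM in WT oocytes (-0.72 ± 0.13). Fam49a, whose product binds the GTPase Rac1, fell by 0.98 ± 0.16 on the log2 scale. The edgeR adjusted p was 0.0159 for Heatr5b, 0.0257 for Dab2 and 0.0168 for Fam49a.

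The other 7 lower genes, like Tenm3, Tmem242 and the genes just described, belong to none of the pathway lists described below. Abca9, a transporter of the ABC family, was at 1.35, 1.32 and 2.08 CPM in Mfn1-/- and 8.31, 12.3 and 10.4 CPM in WT oocytes (log2 fold change -2.71 ± 0.49). Tekt4, a tektin of the sperm flagellum, was at 0.827, 0.0627 and 0.833 CPM in Mfn1-/- and 4.23, 6.58 and 4.18 CPM in WT oocytes (-3.15 ± 0.57). In Mfn1-/- replicate 2 Tekt4 lay under the floor of 3 counts. Plek, a protein kinase C substrate of platelets and leukocytes, fell by 1.94 ± 0.35 and Slamf1, an immune-cell receptor, by 1.74 ± 0.34 on the log2 scale. Zc3h7b, a zinc-finger RNA-binding protein, fell by 0.78 ± 0.15, Pnma5, of the paraneoplastic antigen family, by 1.06 ± 0.18, and Aim1, named here without a role or a position, by 0.75 ± 0.12. The edgeR adjusted p of these 7 ran from 0.0159 (Aim1) to 0.0490 (Slamf1).

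The sources used here do not give the strand setting of the counting. Of the 26 called genes, 13 share their span with an annotated gene on the opposite strand. The share of all genes that do so was not counted. Whether the counting kept reads of the partners apart is not known. The 13 include Mccc1 (with Mccc1os), Plek (with Cnrip1) and Zc3h7b (with Rangap1).

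All 26 genes kept their sign and an unadjusted p below 0.05 without WT replicate 3 (9.93% of all genes had such a p), and their log2 fold changes were 0.89 to 1.09 times those with it. The number of calls was 13 (0.114%), of which 4 were higher (0.0351%) and 9 lower (0.0791%). Among the 26 were 9 of them, Mfn1, Nceh1, Chst11, Tenm3, Fmnl3, Tmem242, Aim1, Mccc1 and Fam49a. Gli3 and Add3 had an edgeR adjusted p of 0.0750 each without that pool, and Cdon of 0.143. The number of calls depended on every pool of the comparison. With a single Mfn1-/- pool left out it was 4 (replicate 1), 3 (replicate 2) and 51 (replicate 3). With a single WT pool left out it was 42 (replicate 1) and 4 (replicate 2). Of the 26, only Mfn1 and Chst11 were called with each of the 6 pools left out in turn, at edgeR adjusted p-values of at most 9.15e-08 and 0.0361. With Mfn2-/- replicate 3 left out of the shared estimate of the spread the count was 16, and without Mfn1&2-/- replicate 1 it was 46.

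Loss of Mfn1 can be examined a second time in libraries that share no sample with those above, by setting Mfn1&2-/- against Mfn2-/- oocytes. There 1163 genes changed (10.2%), 699 higher (6.14%) and 464 lower (4.08%), and 6 of the 26 did so in the same direction and 0 in the other. The 6 are Mfn1, Mccc1, Chst11, Plek, Gli3 and Add3. A further 12 had the same sign without a call, which makes 18 of 26, with Mfn1, the deleted gene, among them. The share of all genes with the same sign in both comparisons was not counted. Gli3 was at 357.4, 545.4 and 464.8 CPM in Mfn1&2-/- and 169.5, 202.0 and 235.6 CPM in Mfn2-/- oocytes (log2 fold change 1.17 ± 0.22, edgeR adjusted p = 0.00356). Mccc1 was at 1.09, 5.00 and 3.41 CPM in Mfn1&2-/- and 19.6, 11.2 and 9.17 CPM in Mfn2-/- oocytes (-2.06 ± 0.45, edgeR adjusted p = 0.00993). Chst11 was at 26.9, 25.2 and 26.9 CPM in Mfn1&2-/- and 52.3, 47.4 and 59.7 CPM in Mfn2-/- oocytes (-1.01 ± 0.24, edgeR adjusted p = 0.0136). For these genes the Mfn1-null pools thus stood on the same side of their controls, without overlap, whether or not Mfn2 was present. Plek differed by -1.51 ± 0.33, Add3 by 0.38 ± 0.11 and Mfn1 by -3.52 ± 0.16 on the log2 scale.

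Whether the change on loss of Mfn1 differed with and without Mfn2 was tested as an interaction. The interaction, the log2 fold change of Mfn1&2-/- against Mfn2-/- minus that of Mfn1-/- against WT, passed an adjusted p below 0.05 in 10 of the 26 genes and in 4.13% of all genes. The 26 were chosen by the second term of that difference, so the count is a description. Of the genes called under the same setting, 4 had an interaction without WT replicate 3 and 0 with glmTreat at a 1.5-fold threshold. The number ran from 0 without Mfn1-/- replicate 1 to 26 without Mfn1-/- replicate 3. Leaving out Mfn1-/- replicate 2 gave 1, WT replicate 1 gave 23 and WT replicate 2 gave 2. Without Mfn2-/- replicate 2, Mfn2-/- replicate 3 or Mfn1&2-/- replicate 3 it was 3, and without Mfn1&2-/- replicate 2 it was 6. Cdon was at 34.3, 43.8 and 36 CPM in Mfn1&2-/- and 43.2, 45.9 and 42.1 CPM in Mfn2-/- oocytes, levels that overlap (interaction -1.06 ± 0.23, edgeR adjusted p = 0.0209). Tmem242 was at 13.4, 18.8 and 19.2 CPM in Mfn1&2-/- and 16.4, 15.2 and 18.1 CPM in Mfn2-/- oocytes (interaction 1.91 ± 0.40, edgeR adjusted p = 0.0185). Ocln was at 25.3, 23.5 and 20.6 CPM in Mfn1&2-/- and 19.4, 27.2 and 22.8 CPM in Mfn2-/- oocytes (interaction -1.01 ± 0.24, edgeR adjusted p = 0.0325). Gli3, called higher on loss of Mfn1 in both comparisons, had an interaction of -0.22 ± 0.30 (edgeR adjusted p = 0.720).

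**Figure D2:**
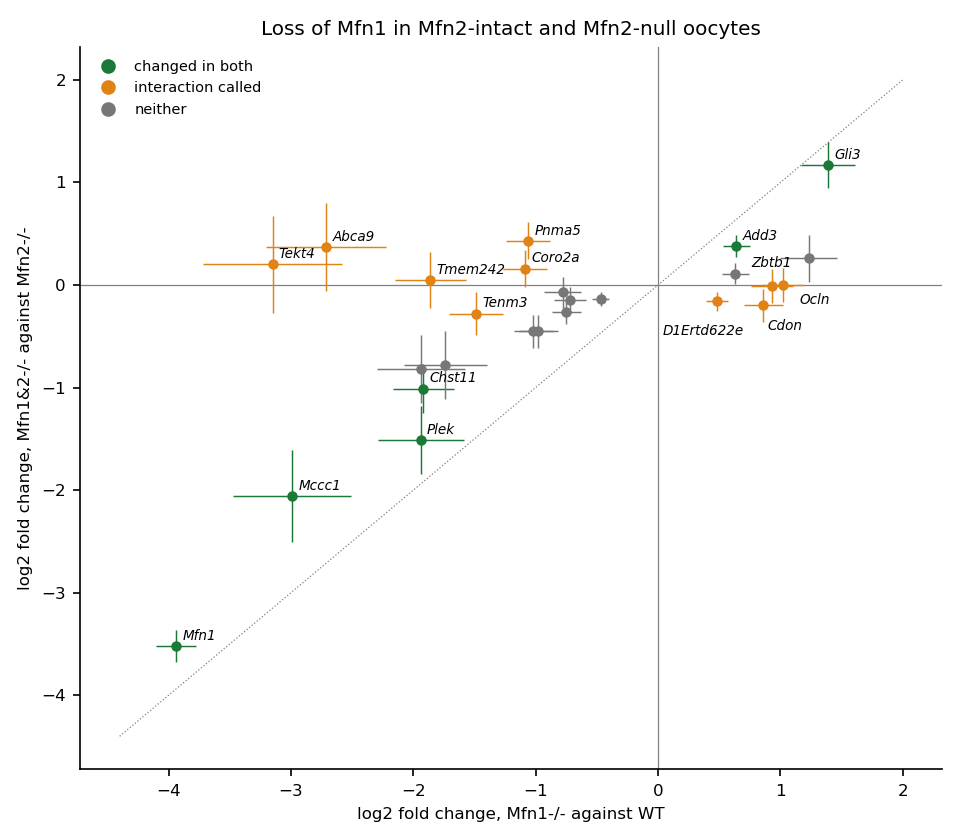
Log2 fold change on loss of Mfn1 for the 26 called genes, in Mfn1-/- against WT oocytes (x axis) and in Mfn1&2-/- against Mfn2-/- oocytes (y axis), with standard errors as bars and equal change as the dotted line. Green genes were called in both comparisons (6 genes) and orange genes had a called interaction (10 genes), with Tekt4 and Abca9 far below 0 on the x axis and near 0 on the y axis.

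Genes of the pathway lists were then counted, each list beside all genes. The 29 lists held 729 distinct measured genes, of which 9 were called, and over all genes 26 of 11385 were called (0.228%). The lists were chosen with earlier results of these data known, so these counts are a description and not a test. At an unadjusted p below 0.05 the count was 96 of these 729, and over all genes 1456 of 11385 (12.8%). The median log2 fold change over all genes was -0.01.

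Most ER chaperone transcripts had lower values in Mfn1-/- oocytes, by small differences of which none passed edgeR's test. The unfolded protein response is the programme by which sensors in the ER membrane, among them Ern1 (IRE1) and Eif2ak3 (PERK), adjust the folding capacity of the ER. Of 23 measured members of this list 0 were called, and 9 were lower and 1 higher at an unadjusted p below 0.05, a share of 43.5%, against 12.8% of all genes (6.77% lower and 6.02% higher). The DESeq2 Wald test called 3, all lower. The median log2 fold change was -0.22, and 17 of the 23 were below 0. Summed over the list, levels were 6011.2, 7270.4 and 7080.6 CPM in Mfn1-/- and 7731.9, 7904.4 and 9109.1 CPM in WT oocytes, without overlap. Without WT replicate 3 the median was -0.16, and 6 were lower and 0 higher at an unadjusted p below 0.05.

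Hspa5 (BiP), the main ER chaperone of the HSP70 family, was at 261.6, 393.9 and 348.4 CPM in Mfn1-/- and 464.5, 441.4 and 560.5 CPM in WT oocytes (log2 fold change -0.55 ± 0.13, edgeR adjusted p = 0.0887, DESeq2 adjusted p = 0.00602). Pdia4, a disulfide isomerase, was at 223.0, 238.1 and 241.0 CPM in Mfn1-/- and 278.6, 298.7 and 397.9 CPM in WT oocytes (-0.47 ± 0.12, edgeR adjusted p = 0.120). Pdia3, another disulfide isomerase, was at 229.2, 247.3 and 249.5 CPM in Mfn1-/- and 296.4, 300.1 and 303.3 CPM in WT oocytes (-0.31 ± 0.08, edgeR adjusted p = 0.116). These are the 3 genes that DESeq2 called, and in each every Mfn1-/- pool lay below every WT pool. The lectin chaperone Canx differed by -0.29 ± 0.09, the HSP90 family member Hsp90b1 by -0.40 ± 0.13 and the BiP cochaperone Dnajc3 by -0.36 ± 0.10. Among the sensors, Ern1 differed by -0.24 ± 0.09, Eif2ak3 by 0.37 ± 0.17 and Atf6 by 0.06 ± 0.11. In Mfn1&2-/- against Mfn2-/- oocytes Hspa5 (-0.48, edgeR adjusted p = 0.0261) and Pdia3 (-0.36, edgeR adjusted p = 0.00988) were called lower, whereas Calr (0.59), Canx (0.48) and Eif2ak3 (0.68) were called higher.

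**Figure D3:**
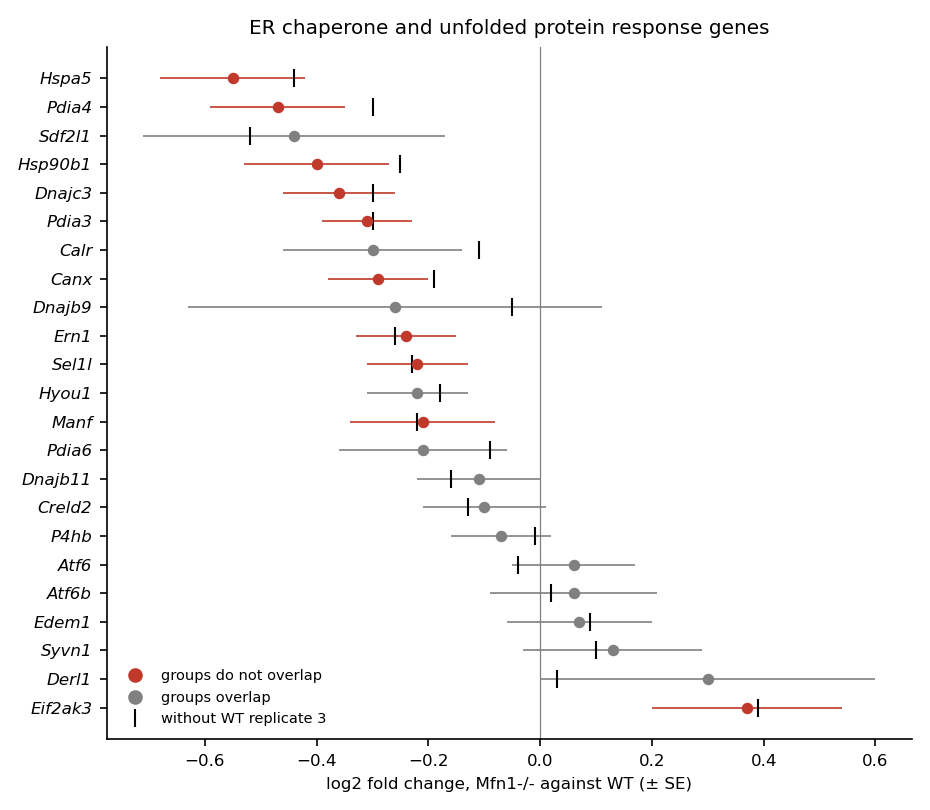
Log2 fold change of the 23 measured ER chaperone and unfolded protein response genes in Mfn1-/- against WT oocytes, with standard errors as bars, red where the 3 Mfn1-/- and 3 WT pools do not overlap and grey where they do, and black ticks for the value without WT replicate 3. Hspa5 is lowest at -0.55 and Eif2ak3 highest at 0.37, with 17 of 23 genes below 0.

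Many promoters of this group carry the ER stress response element, a sequence bound by NF-Y and ATF6. The letters CCAAT, then 9 bases of any kind, then CCACG were searched on both strands in the 250 bases before the gene start (RefSeq, GRCm38.p6). They occurred in 8 of the 21 list members with such a window and in 35 of 27025 genes (0.13%). The 8 are Hspa5, Hsp90b1, Dnajc3, Calr, Canx, Pdia6, Creld2 and Syvn1. Their log2 fold changes ran from -0.55 to 0.13 with a median of -0.30. The 11 measured members with a window and no match ran from -0.47 to 0.37 with a median of -0.22. The windows of the 3 members with the lowest log2 fold changes among the 8 are shown because they hold the element beside the values given above. They are printed 5′ to 3′ on the gene's own strand, with matches in capitals. Hspa5 is at chr2:34771840-34772089 (plus strand), Hsp90b1 at chr10:86705445-86705694 (minus strand, 1 match on each strand) and Dnajc3 at chr14:118937682-118937931 (plus strand).
Hspa5: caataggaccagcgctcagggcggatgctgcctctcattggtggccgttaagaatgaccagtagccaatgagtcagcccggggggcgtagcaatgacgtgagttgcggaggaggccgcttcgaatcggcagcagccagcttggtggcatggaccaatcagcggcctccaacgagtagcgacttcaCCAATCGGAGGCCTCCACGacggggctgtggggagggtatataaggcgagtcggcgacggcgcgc
Hsp90b1: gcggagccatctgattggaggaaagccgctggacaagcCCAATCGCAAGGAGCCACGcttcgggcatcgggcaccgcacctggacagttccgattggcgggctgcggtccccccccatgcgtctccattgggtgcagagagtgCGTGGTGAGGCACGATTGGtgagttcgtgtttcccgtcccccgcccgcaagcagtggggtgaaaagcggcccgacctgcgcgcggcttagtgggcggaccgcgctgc
Dnajc3: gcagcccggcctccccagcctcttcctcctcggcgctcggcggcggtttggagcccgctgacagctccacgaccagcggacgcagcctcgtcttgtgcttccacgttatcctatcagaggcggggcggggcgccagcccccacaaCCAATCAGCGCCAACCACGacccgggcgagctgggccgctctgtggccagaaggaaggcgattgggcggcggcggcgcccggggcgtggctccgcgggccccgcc

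The Hedgehog list had 23 measured members. Besides the 2 called genes, 4 more were higher and 1 lower at an unadjusted p below 0.05. That is 7 of 23 in all (30.4%), against 12.8% of all genes (6.02% higher and 6.77% lower). The list median was 0.15. Without WT replicate 3, 0 were called and the median was 0.19. At an unadjusted p below 0.05, 4 were then higher and 3 lower, against 9.93% of all genes in either direction. In Mfn1&2-/- against Mfn2-/- oocytes the list median was 0.00, with 3 called higher and 0 lower. Prkacb, a catalytic subunit of protein kinase A, was at 41.7, 45.0 and 43.7 CPM in Mfn1-/- and 25.4, 22.9 and 24.0 CPM in WT oocytes (log2 fold change 0.85 ± 0.17, edgeR adjusted p = 0.0635, DESeq2 adjusted p = 0.00117). The receptor Ptch1, also a target gene of the pathway, was at 12.8, 6.08 and 9.08 CPM in Mfn1-/- and 6.39, 2.78 and 3.34 CPM in WT oocytes (1.15 ± 0.46, edgeR adjusted p = 0.307). Smo, which passes the signal on, was at 0.602, 0.690 and 1.5 CPM in Mfn1-/- and 3.91, 2.28 and 7.10 CPM in WT oocytes (-2.25 ± 0.69, edgeR adjusted p = 0.188). Gli1, another target gene, was low, at 1.58, 0.439 and 4.25 CPM in Mfn1-/- and 2.32, 1.27 and 2.00 CPM in WT oocytes, and the groups overlapped. The ligand Shh was at 0.502 to 1.67 CPM in Mfn1-/- and 0.253 to 0.559 CPM in WT oocytes. Gli2 (0.50 ± 0.38) and Sufu (0.18 ± 0.10), which holds Gli proteins in check, were not called. The letters GACCACCCA, a Gli binding site, occurred in 0 of 24 list members with a promoter window and in 0.255% of all genes. At so low a share no match was the likely outcome for any 24 genes. The search therefore cannot show whether these genes have Gli sites.

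Several called genes were the single call of their pathway. Of 23 measured genes of chondroitin and heparan sulfate synthesis, Chst11 was called lower and 3 were higher at an unadjusted p below 0.05, with a list median of -0.02. Those 3 are Chst12 (1.24 ± 0.46), a sulfotransferase of the same kind, the polymerising factor Chpf (0.68 ± 0.26) and the epimerase Dse (0.28 ± 0.11). Of 20 measured genes of branched-chain amino acid breakdown Mccc1 alone was called. Its partner subunit Mccc2 was at 6.39, 5.89 and 2.58 CPM in Mfn1-/- and 5.03, 3.37 and 2.00 CPM in WT oocytes, which overlap. Of 17 measured fibroblast growth factors, receptors and relays Fgf10 alone was called, and its receptor gene Fgfr2 differed by -0.30 ± 0.13 (edgeR adjusted p = 0.332). Of 26 adhesion and gap junction genes Ocln and Add3 were called higher. Cdh1 (E-cadherin) was at 398.0, 463.5 and 402.4 CPM in Mfn1-/- and 551.8, 577.4 and 533.7 CPM in WT oocytes (-0.40 ± 0.09, edgeR adjusted p = 0.0779, DESeq2 adjusted p = 0.00501).

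Mitochondrial gene lists held few calls. Besides Mfn1, 0 of the other 26 measured fusion and fission genes were called. Slc25a46, an outer-membrane protein of mitochondrial dynamics, was at 16.2, 13.6 and 9.41 CPM in Mfn1-/- and 7.11, 4.22 and 4.59 CPM in WT oocytes (log2 fold change 1.30 ± 0.29, edgeR adjusted p = 0.0839, DESeq2 adjusted p = 0.00723). Mff, a receptor for the fission GTPase, differed by -0.27 ± 0.11 (edgeR adjusted p = 0.332). Of 76 measured OXPHOS subunits 0 were called by edgeR, 4 had an unadjusted p below 0.05 (5.26%), and the median was 0.00. DESeq2 called 1 of them higher, the complex I subunit Ndufb5 (0.90 ± 0.22, edgeR adjusted p = 0.107, DESeq2 adjusted p = 0.0249). Afg3l2, a protease of the inner membrane, was at 170.7, 196.0 and 198.1 CPM in Mfn1-/- and 260.3, 225.5 and 268.4 CPM in WT oocytes (-0.42 ± 0.09, edgeR adjusted p = 0.0812, DESeq2 adjusted p = 0.00735). The integrated stress response list had 0 calls among 18 measured genes and a median of -0.08.

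No gene that defines the oocyte was called. Of 23 measured oocyte growth and zona genes 0 were called by edgeR or DESeq2 and 0 had an unadjusted p below 0.05. Gdf9, a growth factor made by oocytes, was at 4295.1, 3680.1 and 3927.9 CPM in Mfn1-/- and 4774.8, 3966.1 and 3334.3 CPM in WT oocytes, and the zona protein gene Zp3 at 1151.6, 860.0 and 928.0 CPM in Mfn1-/- and 966.2, 1210.5 and 810.4 CPM in WT oocytes. Both sets overlap. Of 32 measured maternal effect genes 0 were called by edgeR. Dppa3 (Stella), a chromatin protein of the egg, was at 211.6, 233.6 and 235.8 CPM in Mfn1-/- and 309.1, 304.0 and 280.9 CPM in WT oocytes (log2 fold change -0.39 ± 0.09, edgeR adjusted p = 0.0779, DESeq2 adjusted p = 0.00460). It was called lower in Mfn1&2-/- against Mfn2-/- oocytes (-0.45, edgeR adjusted p = 0.00422). Cnot7, a deadenylase that shortens poly(A) tails, was at 269.8, 326.0 and 356.0 CPM in Mfn1-/- and 433.5, 449.5 and 491.7 CPM in WT oocytes (-0.53 ± 0.12, edgeR adjusted p = 0.0867). Cytosolic ribosomal protein genes, which can share reads with pseudogenes, had a median of -0.17 with 61 of 76 below 0, and 0 were called by edgeR. Over all genes 5842 of 11385 were below 0. DESeq2 called 1 of the 76 lower, Rps23 (-0.57 ± 0.15, edgeR adjusted p = 0.120, DESeq2 adjusted p = 0.0289). In Mfn1&2-/- against Mfn2-/- oocytes the median of this list went the other way, to 0.24. There edgeR called 17 of its genes higher and 4 lower, against 6.14% and 4.08% of all genes.

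**Figure D4:**
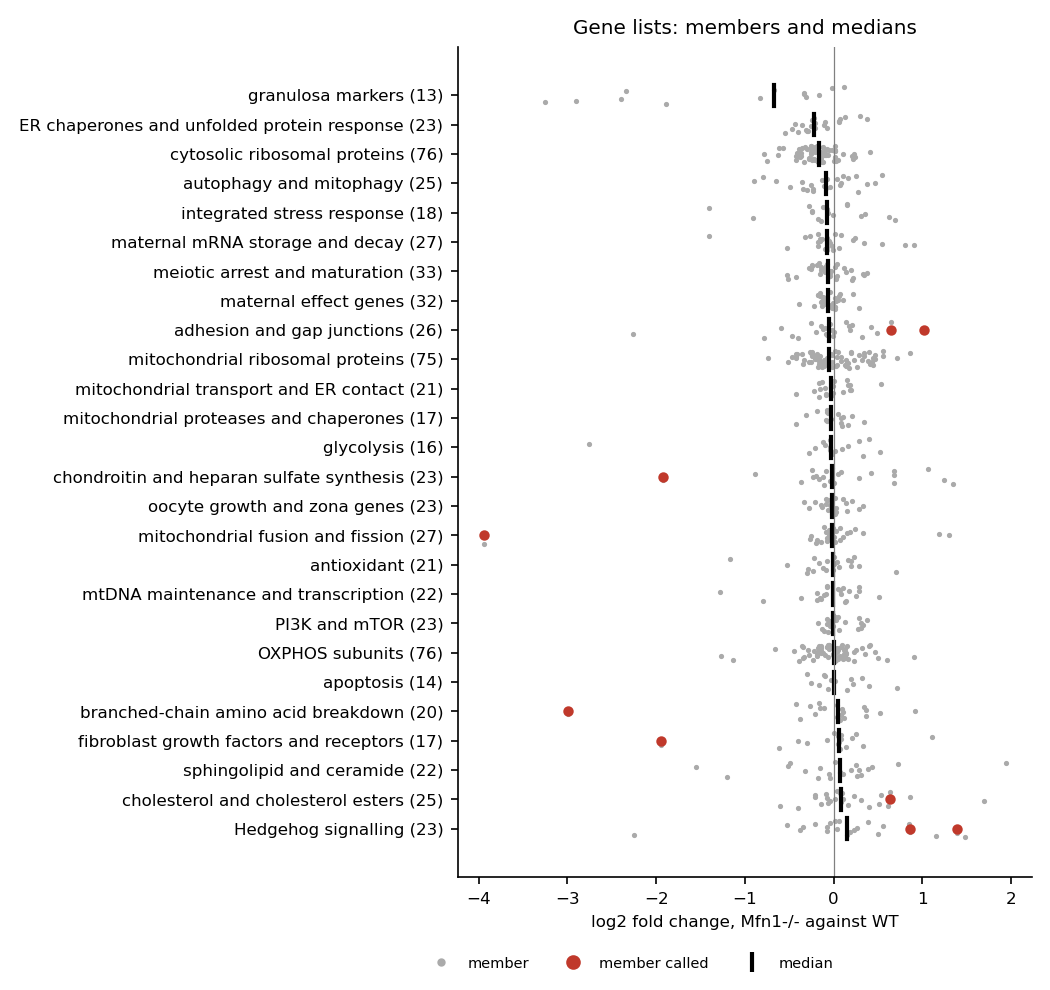
Log2 fold change in Mfn1-/- against WT oocytes of the members of each list with at least 10 measured genes, grey dots for members, red dots for called members and black bars for medians, with the number measured in brackets. Medians lie between -0.67 (granulosa markers) and 0.15 (Hedgehog signalling), and some uncalled members lie farther from 0 than called members of the same list.

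Granulosa transcripts stood high in 1 of the WT pools. The 13 of 20 markers that were measured summed to 548.4, 568.7 and 550.3 CPM in Mfn1-/- and 598.9, 585.6 and 985.0 CPM in WT oocytes, with WT replicate 3 highest. That pool was set apart for these same transcripts. Its high values, and smaller differences without it, restate that choice. Inhba, an activin and inhibin subunit, was at 0.0752, 3.95 and 4.16 CPM in Mfn1-/- and 1.84, 5.31 and 71.3 CPM in WT oocytes. In Mfn1-/- replicate 1 Inhba lay under the floor of 3 counts. The list median was -0.67 with all pools and -0.39 without WT replicate 3, and 0 markers were called by edgeR. At an unadjusted p below 0.05, 6 markers were lower with all pools, against 6.77% of all genes. Without WT replicate 3, 2 markers were lower, against 566 of 11385 genes. DESeq2 called 1 lower, the estrogen receptor gene Esr2, at 36.7, 46.9 and 45.9 CPM in Mfn1-/- and 56.0, 67.4 and 82.5 CPM in WT oocytes (-0.67 ± 0.16, edgeR adjusted p = 0.0887, DESeq2 adjusted p = 0.00807). Gja1 (connexin 43), the main gap junction protein of granulosa cells, followed the same pattern, at 2.71, 17.5 and 27.3 CPM in Mfn1-/- and 15.4, 28.5 and 183.6 CPM in WT oocytes. Of the 18 genes called lower, 6 had their highest WT value in replicate 3. Genes with a wide spread between WT pools are less readily called, so this count cannot show whether that pool moved the calls. Whether granulosa transcripts in it did so was not tested. Of theca and stroma markers 3 of 15 were measured, and of endothelial, blood and immune markers 4 of 16, with 0 called in either list. Fewer cells of a type and less RNA per cell cannot be told apart in pools.

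Genes around the deleted locus were examined by distance. Of 39 tested genes within 5 Mb of Mfn1, Mfn1 left out, 1 was called (Mccc1, 3.38 Mb away; chromosome 3, 35959312 to 36000678) and 12 had an unadjusted p below 0.05 (30.8%, 5 higher and 7 lower). Over all genes 0.228% were called and 12.8% had an unadjusted p below 0.05. Nceh1, at 5.24 Mb, was the other called gene within 10 Mb. Of the same 39 genes 9 were called in Mfn1&2-/- against Mfn2-/- oocytes, where 10.2% of all genes were called. Most of these 9 were higher, whereas Mccc1, Actl6a and Gnb4 were lower. Actl6a, a subunit of chromatin remodelling complexes 0.127 Mb away, was at 51.1, 43.4 and 33.3 CPM in Mfn1-/- and 73.6, 62.1 and 62.1 CPM in WT oocytes (log2 fold change -0.63 ± 0.16, edgeR adjusted p = 0.107). In Mfn1&2-/- it was at 32.0, 33.5 and 39.1 CPM and in Mfn2-/- oocytes at 59.3, 66.1 and 65.5 CPM, a call (-0.87 ± 0.16, edgeR adjusted p = 0.00324). The next gene downstream, Gnb4, a G protein subunit, differed by -0.27 ± 0.10 in Mfn1-/- against WT (edgeR adjusted p = 0.287) and by -0.41 ± 0.10 in Mfn1&2-/- against Mfn2-/- oocytes (edgeR adjusted p = 0.0211). Whether the targeting of the locus or sequence linked to it moved these genes was not tested.

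Chromosome 3 as a whole held 3 of the 26 calls among 517 tested genes, and 95 genes with an unadjusted p below 0.05 (18.4%). Over the other chromosomes that share ran from 10.5% to 14.6%. Without WT replicate 3, 7 of the 13 calls lay on chromosome 3, and the 4 genes called only then were all among them. These are Hormad1, a meiotic chromosome axis protein, Hist2h2bb, a histone gene, the receptor gene Notch2 and Cttnbp2nl, a cortactin-binding protein, which lie from 95559677 to 105053146. Hormad1 was at 26.5, 65.6 and 28.3 CPM in Mfn1-/- and 2.95, 1.01 and 34.3 CPM in WT oocytes. Hist2h2bb was at 89.9, 202.3 and 62.7 CPM in Mfn1-/- and 8.70, 11.2 and 70.5 CPM in WT oocytes. Notch2 was at 54.9, 57.2 and 59.6 CPM in Mfn1-/- and 27.0, 31.5 and 70.3 CPM in WT oocytes. In Hormad1 and Hist2h2bb WT replicate 3 lay within the range of the Mfn1-/- pools and above the other WT pools. In Notch2 it lay above the Mfn1-/- and the other WT pools. The Mfn1&2-/- (78.5, 83.5 and 76.6 CPM) and Mfn2-/- pools (113.3, 104.0 and 102.6 CPM) were higher still. Cttnbp2nl was at 302.2, 283.3 and 272.6 CPM in Mfn1-/- and 404.7, 454.7 and 160.9 CPM in WT oocytes. There WT replicate 3 lay below the Mfn1-/- and the other WT pools. It was within the range of the Mfn2-/- pools (176.7, 157.4 and 184.3 CPM) and below the Mfn1&2-/- pools (188.5, 170.6 and 177.4 CPM). WT replicate 3 was more than 2-fold above or below both other WT pools in 7.74% of chromosome 3 genes and in 3.88% to 8.13% on the other chromosomes.

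**Figure D5:**
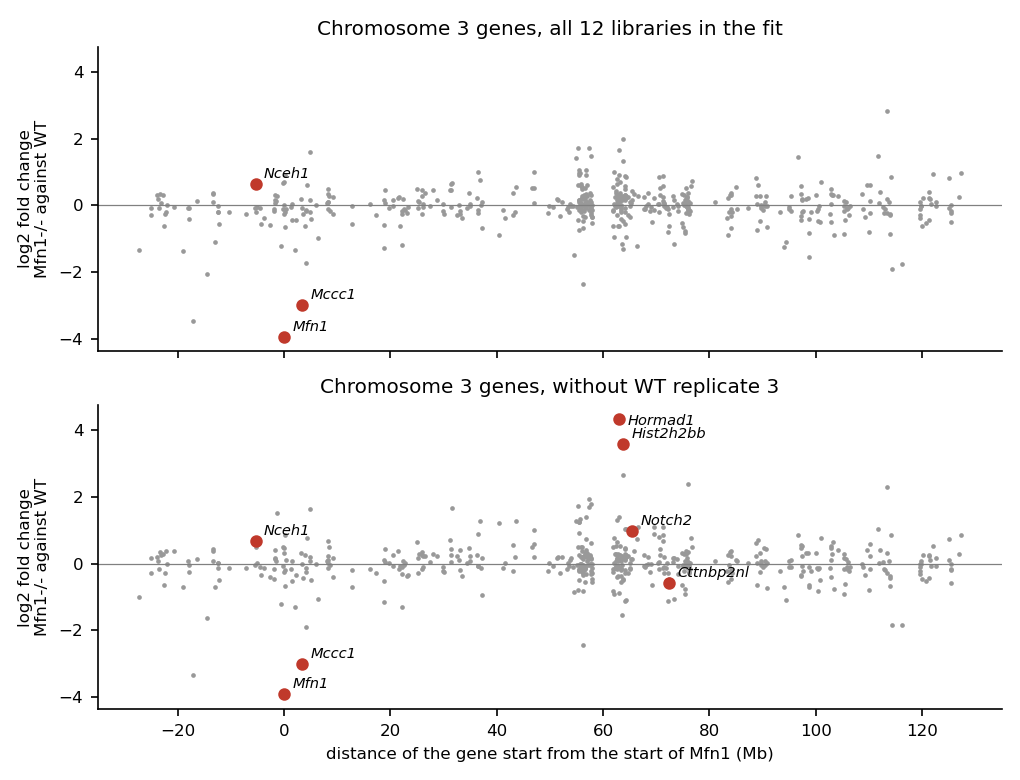
Log2 fold change in Mfn1-/- against WT oocytes of the 517 tested chromosome 3 genes by distance of their start from that of Mfn1 (Mb), with all libraries (top) and without WT replicate 3 (bottom), called genes in red. Mfn1, Mccc1 and Nceh1 are called in both, and Hormad1, Hist2h2bb, Notch2 and Cttnbp2nl in the bottom panel alone.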

How the data were processed

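Total RNA was extracted with a PicoPure kit and made into SMARTer stranded libraries after depletion of ribosomal RNA, per the labels' protocols. Paired reads of 100 bases came from an Illumina HiSeq. FastQC 0.11.7, STAR 2.7.0a, mm10 and edgeR (no version) appear in the submitters' processing notes. The deposited table holds raw counts per gene. A deposited signal table equalled TMM-scaled CPM from these counts within a relative 5.1e-15 and served only as that check. Neither annotation nor strand setting is given in the sources used.

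Counts of all 12 libraries were fitted with edgeR 4.0.16 (R 4.3.3, quasi-likelihood, TMM, 4 group means, 8 residual degrees of freedom). The fit was also run on simulated counts. These held no outlying pool, so that run cannot show how far the calls depend on single pools. Adjusted p-values are Benjamini-Hochberg values over 11385 genes, called below 0.05. filterByExpr removed no gene. Standard errors of log2 fold changes are the absolute value divided by the square root of F. Alternatives were DESeq2 1.42.0, limma-voom (limma 3.58.1), other scalings, filters and thresholds, a replicate block, fewer libraries and each library left out.

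The comparison, the members and the gene lists were chosen with earlier results of these data known. Named are both mitofusins, genes called with or without WT replicate 3, up to 4 members per list with the smallest p, and DESeq2-only genes of large fold. A gene that this rule names is not reported here. Other list members, Actl6a and Gnb4 were chosen after their values were seen. Of 11385 symbols, 11271 were placed in GENCODE vM21, 571 under an older name. Mitochondrially encoded transcripts had 0 of 15 list entries in the table. The label of 1 Mfn2-/- pool is spelled differently, and it was placed by its description. Differences between pools of a group exceeded sampling noise in every pair.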

Additional observations from a re-analysis of the deposited data

Results flagged for a closer look

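Of 160 genes that the naming rule or the text picked, 28 (17.5%) had a change on loss of Mfn1 that differed with and without Mfn2, by the edgeR interaction test at an adjusted p of at most 0.05 over all genes. Over all genes the share was 4.13%. Most of the 160 were picked for a small p in Mfn1-/- against WT, a term of the interaction, so the shares are not to be compared as a test. Each is given as the interaction, which is the log2 fold change of Mfn1&2-/- against Mfn2-/- minus that of Mfn1-/- against WT.

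Those of them that were called in Mfn1-/- against WT, 10 in all, are Ocln (-1.01: 0.00 minus 1.02), Zbtb1 (-0.94: -0.01 minus 0.93), Cdon (-1.06: -0.20 minus 0.86) and D1Ertd622e (-0.65: -0.16 minus 0.48), all higher in Mfn1-/- than in WT oocytes, and Tenm3 (1.21: -0.28 minus -1.49), Tmem242 (1.91: 0.05 minus -1.86), Coro2a (1.25: 0.16 minus -1.09), Pnma5 (1.49: 0.43 minus -1.06), Abca9 (3.07: 0.37 minus -2.71) and Tekt4 (3.35: 0.20 minus -3.15), all lower.

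The other 18 were not called in Mfn1-/- against WT. Of mitochondrial genes they are Slc25a46 (-1.57: -0.27 minus 1.30), Rhot1 (0.44: 0.27 minus -0.17), Ndufb5 (-1.19: -0.29 minus 0.90), Cox5b (1.39: 1.10 minus -0.29), Aifm1 (0.85: 0.56 minus -0.30) and Bnip3l (0.61: 0.38 minus -0.23). Slc25a46 and Rhot1 act in the shape and transport of mitochondria, Ndufb5 and Cox5b are subunits of the respiratory chain, and Bnip3l is a mitophagy receptor.

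Of ribosomal protein genes they are Rps23 (1.37: 0.80 minus -0.57), Rpl5 (0.76: 0.44 minus -0.33) and Rpl13a (1.00: 0.72 minus -0.28) in the cytosol, and Mrps22 (0.51: 0.16 minus -0.36) and Mrps7 (-1.30: -0.75 minus 0.55) in mitochondria. Of stress and ER genes they are Pdia4 (0.76: 0.29 minus -0.47), Canx (0.77: 0.48 minus -0.29), Calr (0.89: 0.59 minus -0.30) and Ppp1r15a (0.58: 0.35 minus -0.24).

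The remaining genes are the adhesion gene Cdh1 (0.59: 0.19 minus -0.40) and the Hedgehog list members Prkacb (-0.96: -0.10 minus 0.85) and Smo (4.13: 1.87 minus -2.25). Smo was at most 1.5 CPM in the Mfn1-/- pools. These interactions were not recomputed without single libraries for genes outside those called in Mfn1-/- against WT.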

How the results depend on the processing

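Mfn1 fell and Mfn2 went uncalled under every setting run. All 26 genes kept their direction under each of the 22 alternatives, and over these alternatives the other 25 genes lost the call 207 times in all. The number of genes called was 224 by the DESeq2 Wald test, 13 with a fit on the 6 libraries alone, 15 on these without WT replicate 3, and 1, Mfn1, with glmTreat at a 1.5-fold threshold. Of the genes called in Mfn1-/- against WT under the same setting, DESeq2 called 34 and glmTreat 1 also in Mfn1&2-/- against Mfn2-/- in the same direction. The interaction passed for 83 of them by DESeq2 and for 0 by glmTreat. Leaving out 1 library at a time gave 3 to 51 called genes, 2 to 10 of them also called in Mfn1&2-/- against Mfn2-/- and 0 to 26 with an interaction. Those 2 comparisons use Mfn2-null libraries and could not be fitted on the 6 libraries alone. The cause of these differences was not tested, except that a fit on 6 libraries has fewer samples.

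Scaling by library size alone shifted the median of all genes to 0.05. List medians were then 0.04 (mitochondrial fusion and fission), 0.04 (mitochondrial transport and ER contact), 0.11 (branched-chain amino acid breakdown), 0.03 (glycolysis), 0.13 (sphingolipid and ceramide), -0.17 (ER chaperones), -0.03 (integrated stress response), 0.06 (apoptosis), -0.04 (autophagy and mitophagy), 0.00 (maternal effect genes), 0.00 (meiotic arrest and maturation), -0.01 (maternal mRNA storage and decay), 0.01 (adhesion and gap junctions), 0.12 (fibroblast growth factors and receptors) and 0.05 (PI3K and mTOR). With limma-voom they were 0.06 (Hedgehog signalling), 0.01 (PI3K and mTOR), -0.34 (granulosa markers) and -0.45 (theca and stroma markers), and with a filter of at least 5 CPM in 3 libraries -0.33 (granulosa markers). On the 6 libraries without WT replicate 3 they were 0.00 (glycolysis), 0.21 (cholesterol and cholesterol esters), -0.16 (ER chaperones), -0.03 (integrated stress response), 0.10 (apoptosis), -0.01 (meiotic arrest and maturation), 0.02 (PI3K and mTOR) and 0.75 (theca and stroma markers). Leaving out 1 library at a time gave -0.05 to -0.01 (mitochondrial fusion and fission), -0.12 to 0.02 (OXPHOS subunits), 0.00 to 0.10 (branched-chain amino acid breakdown), -0.04 to 0.03 (glycolysis), 0.00 to 0.21 (cholesterol and cholesterol esters), 0.01 to 0.12 (sphingolipid and ceramide), -0.25 to -0.14 (ER chaperones), -0.14 to -0.04 (integrated stress response), -0.07 to 0.09 (apoptosis), -0.12 to -0.02 (autophagy and mitophagy), -0.08 to 0.03 (antioxidant), -0.07 to -0.01 (maternal effect genes), -0.11 to -0.01 (meiotic arrest and maturation), -0.09 to -0.01 (maternal mRNA storage and decay), -0.08 to 0.03 (adhesion and gap junctions), -0.01 to 0.11 (fibroblast growth factors and receptors), -0.02 to 0.07 (chondroitin and heparan sulfate synthesis), -0.01 to 0.02 (PI3K and mTOR) and -0.89 to 0.74 (theca and stroma markers). List medians were not computed with glmTreat. The cause of these shifts was not tested.

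The replicate number as a block gave 21 calls, 18 of them among the 26, with list medians of 0.06 (Hedgehog signalling) and -0.34 (granulosa markers). Deviations of same-numbered Mfn1-/- and WT pools from their group means correlated at 0.15, 0.01 and 0.11. Correlations between differently numbered pools were not computed, so whether the numbers pair the pools cannot be told.

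Genes near 0 in the report changed sign in some settings without a call. Atf6 was at -0.04 on the 6 libraries without WT replicate 3. Gli1 was at -0.46 with limma-voom and -0.02 with the replicate block. Gdf9 and Zp3 were at 0.04 each with library size only. Leaving out 1 library gave -0.04 to 0.14 for Atf6, -0.89 to 0.64 for Gli1, -0.14 to 0.12 for Gdf9, -0.15 to 0.14 for Zp3 and -0.59 to 0.02 for Cttnbp2nl. At 3 pools per group, genes near the floor of 3 counts can show large log2 fold changes with large standard errors, such as 0.69 for Smo and 0.72 for Gli1.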
